A study of Sus scrofa with 20 samples.

Results

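Toll-like receptors are membrane proteins with which animal cells recognise molecules of microbes. All 10 of them, TLR1 to TLR10, were chosen by gene symbol, and all 10 had an identifier among the 31907 genes of the count table. Their mRNA was read in backfat, the fat under the skin of the back, and in liver of 5 boars of the Nanchukmacdon pig breed. There were 5 RNA-seq libraries of backfat and 5 of liver, and the series also holds 10 whole-genome bisulfite libraries of the same tissues that were not used here. The sample labels give an age of 22 months for the animals and mark all libraries as WT, the study's methods give a higher average age, and neither names a treatment. Libraries are named by tissue and by the boar number in the column names of the count table (65, 67, 69, 71 and 72), because no source used here ties the labels' replicate numbers to animals.

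The receptors share a design. An outer part made of leucine-rich repeats binds the microbial molecule, and an inner TIR domain recruits adaptor proteins, of which MYD88 serves nearly all receptors and TICAM1 (TRIF) serves TLR3 and TLR4. TLR1, TLR2, TLR4, TLR5 and TLR6 act at the cell surface on bacterial lipids, lipopeptides and flagellin, while TLR3, TLR7, TLR8 and TLR9 act in endosomes on nucleic acids. Signalling ends in NF-kB and in interferon regulatory factors, which switch on cytokine genes. In liver the receptors are known from Kupffer cells, the resident macrophages, and also from hepatocytes and endothelium, and in fat from macrophages and adipocytes.

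Backfat libraries held 45157114 to 61772737 counts each and liver libraries 43820042 to 53768601. Counts were scaled by the trimmed mean of M-values (TMM) and are given in CPM, which is counts scaled to a fixed library total. A gene was called when edgeR's quasi-likelihood test gave a Benjamini-Hochberg adjusted p (FDR) of at most 0.05, and it was a differentially expressed gene (DEG) when the log2 fold change was also at least 2 in either direction. Log2 fold changes are backfat minus liver, so a negative value is higher in liver. Of 16275 genes tested, 8955 were called and 3633 were DEGs, and the median log2 fold change over all of them was 0.00014. The labelled tissues carried their own markers: 8 of 8 hepatocyte genes were called higher in liver and 6 of 6 adipocyte genes higher in backfat, although CPS1 and TAT in backfat and ADIPOQ and LEP in liver were at 0 counts in some libraries only. The 8 hepatocyte genes summed to 172 to 554 CPM in backfat, with the highest sum in boar 69, and to 25625 to 101876 CPM in liver, with the lowest sum in boar 67. Most of the backfat sum was APOA1, at 167 to 482 CPM. ALB was at 36.4 CPM in backfat of boar 69 and at 0.126 to 0.351 CPM in the other backfat libraries. The liver library of boar 67 also stood apart by the 44.5% of its counts that came from mRNA of mitochondrially encoded proteins, against 6.38% to 20.2% in the other libraries.

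Of the 10 receptors, 7 were called. TLR2, TLR3, TLR5, TLR6, TLR7 and TLR9 were higher in liver and TLR4 was higher in backfat, while TLR1, TLR8 and TLR10 did not pass the test. These 6 calls towards liver stand beside 27.0% of all genes tested, and the 1 call towards backfat beside 28.0%. TLR3 was the DEG of the family, in a table in which 11.2% of the genes were DEGs higher in liver and 11.1% were DEGs higher in backfat. In 4 receptors, TLR2, TLR3, TLR6 and TLR9, each of the 5 liver libraries lay above each of the 5 backfat libraries, which held for 19.7% of all genes tested. No receptor had all backfat libraries above all liver libraries, a pattern seen in 22.9% of all genes. The median log2 fold change of the 10 receptors was -0.87. These directions depend on the scaling in part, because with library size alone the median of all genes moved to 0.71, 2874 of the 4214 DEGs were higher in backfat, 4 receptors were called (1 on the backfat and 3 on the liver side), and TLR1 and TLR7 changed sign. Fewer cells of a kind and less mRNA per cell cannot be told apart in such bulk samples.

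**Figure D1:**
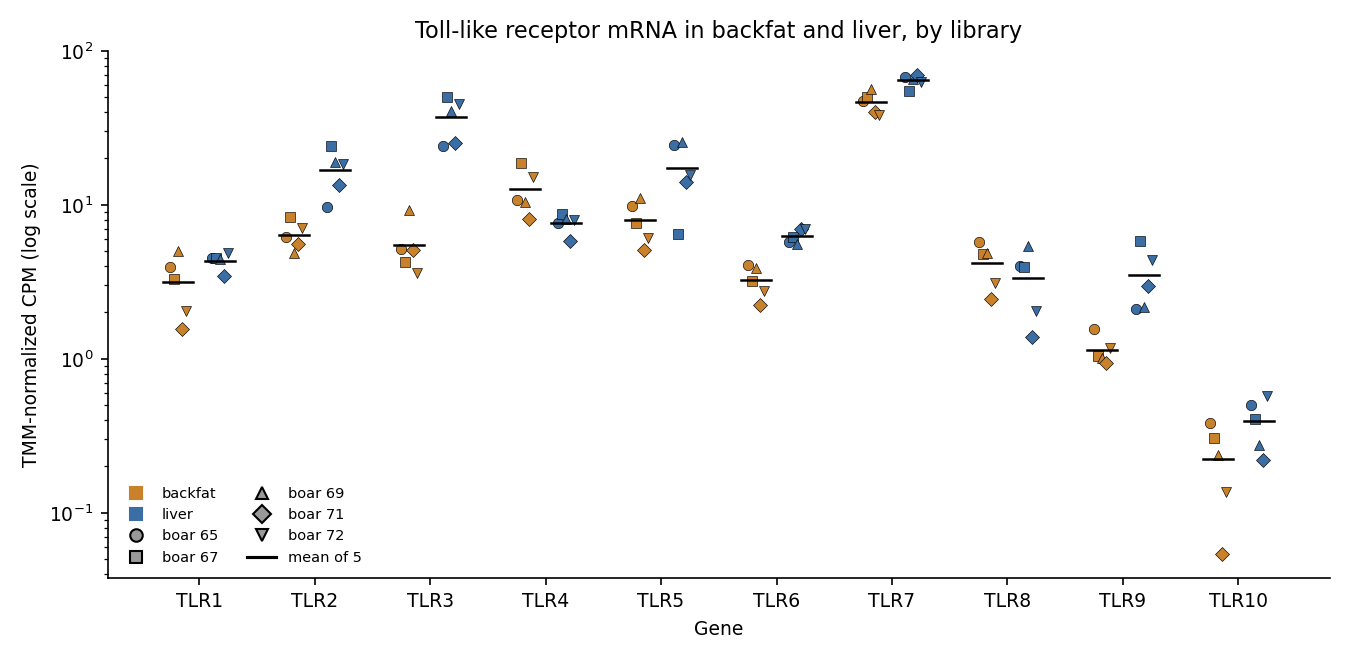
Each point is 1 library, placed by its TMM-normalized CPM on a log axis, in orange for backfat and blue for liver, with 1 symbol per boar and a black bar at the mean of 5 libraries. TLR7 had the highest CPM of the family in every library, TLR10 the lowest, and the tissues were separated without overlap for TLR2, TLR3, TLR6 and TLR9.

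**Figure D2:**
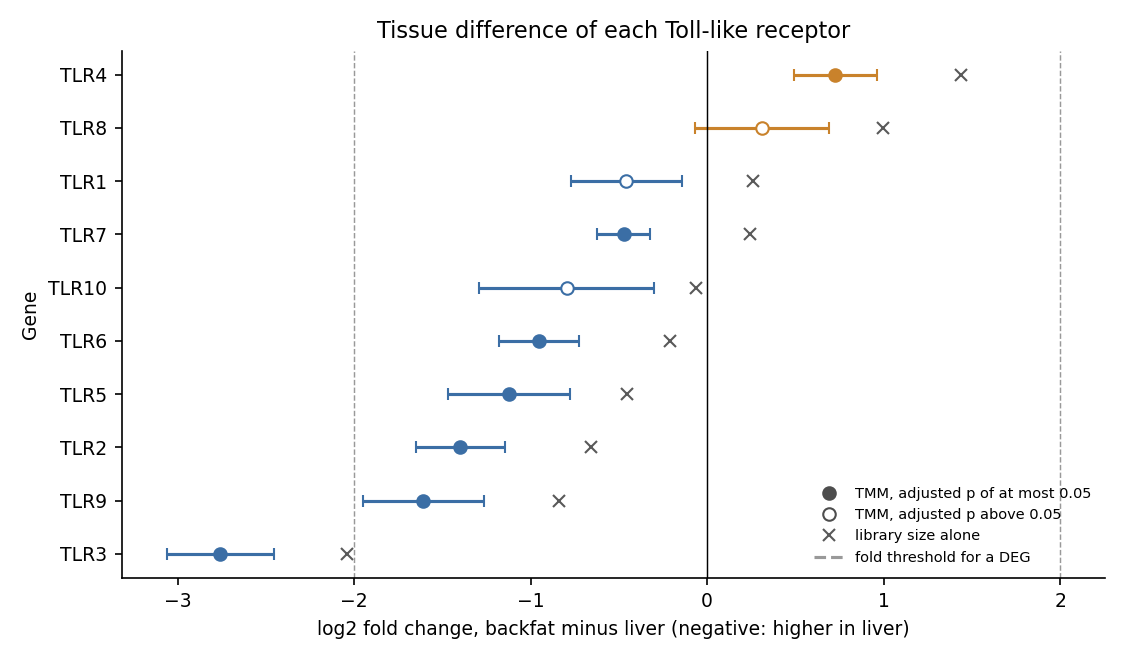
Log2 fold changes of the 10 receptors (backfat minus liver) with their standard errors, filled where the adjusted p was at most 0.05 and open where it was not, with crosses for the fit on library size alone. TLR3 lay beyond the dashed line at -2, TLR4 was the called receptor on the backfat side, and the crosses of TLR1 and TLR7 lie on the other side of 0 from their points.

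TLR3, the endosomal sensor of double-stranded RNA that signals through TICAM1, showed the largest difference of the family. The gene (ENSSSCG00000015801) lies on the plus strand of chr15:46966262-46977774 in Sscrofa11.1, with 8 exons in RefSeq. Its promoter window, 250 bases before to 50 bases from the annotated start on (chr15:46966012-46966311, plus strand), is shown because it is 1 of the 2 among 9 member windows that held the interferon regulatory factor (IRF) motif GAAANNGAA on either strand. Capitals mark that match, which begins 50 bases before the start and reads on the opposite strand:
TLR3 promoter: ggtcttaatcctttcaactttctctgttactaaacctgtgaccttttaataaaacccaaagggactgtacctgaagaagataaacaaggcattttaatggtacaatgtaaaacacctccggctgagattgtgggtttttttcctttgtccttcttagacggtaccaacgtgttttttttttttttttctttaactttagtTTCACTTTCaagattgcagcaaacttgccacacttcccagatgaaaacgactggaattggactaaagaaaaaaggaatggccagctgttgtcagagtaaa
The IRF motif was found in 8.35% of the 20667 promoter windows of the same length, and a match describes letters only. In backfat, TLR3 was at 5.15, 4.24, 9.20, 5.10 and 3.59 CPM in boars 65, 67, 69, 71 and 72. In liver, TLR3 was at 23.9, 49.9, 40.7, 25.1 and 45.1 CPM in the same order. The highest backfat library, boar 69, stayed well below the lowest liver library, so the tissues did not overlap. The difference was -2.76 on the log2 scale (SE 0.30, edgeR FDR 8.07e-06), which is 6.77-fold higher in liver, and it had the same direction in 5 of 5 boars. The backfat library of boar 69 was also the backfat library with the highest sum of hepatocyte markers, and its part in the TLR3 value was not tested, but without that library the difference was -3.02. Under the alternatives tried the value ranged from -3.02 to -2.04, and it was called in each of them.

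Of the other nucleic acid sensors, TLR7 and TLR9 were also higher in liver and TLR8 did not pass the test. TLR9, the endosomal sensor of DNA with unmethylated CpG, was low in both tissues. In backfat, TLR9 was at 1.56, 1.04, 1.01, 0.94 and 1.18 CPM, from 52 to 138 counts. In liver, TLR9 reached 2.12, 5.86, 2.17, 2.97 and 4.39 CPM, from 85 to 217 counts. Boar 67 had the highest liver value and boar 65 the lowest, and all liver libraries were above all backfat libraries. TLR9 was 3.05-fold higher in liver (log2 fold change -1.61, SE 0.34, edgeR FDR 0.00163), and without the liver library of boar 67 the log2 fold change was -1.38, still called. TLR9 (ENSSSCG00000011436; chr13:34353444-34370990, minus strand) overlaps TWF2 in the RefSeq annotation, and the counting command set no strand option, so reads of that shared stretch cannot be assigned with certainty.

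TLR7, a sensor of single-stranded RNA, had the most counts of the family, 2032 to 4186 per library. In backfat, TLR7 was at 47.2, 49.9, 56.7, 39.8 and 38.1 CPM. In liver, TLR7 was at 68.0, 54.9, 65.8, 70.0 and 63.1 CPM. The lowest liver library, boar 67, fell below the highest backfat library, boar 69, so the ranges touched, although each boar had more TLR7 in its liver than in its backfat. The difference was small, 1.39-fold higher in liver (log2 fold change -0.47, SE 0.15, edgeR FDR 0.0179). It missed the threshold without the backfat library of boar 71 (FDR 0.0548), without that of boar 72 (FDR 0.0534) and when every gene with a count was tested (FDR 0.0684), and with library size alone it turned to 0.24.

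TLR8, which also senses single-stranded RNA and neighbours TLR7 on chromosome X, did not differ beyond its spread. In backfat, TLR8 was at 5.71, 4.76, 4.84, 2.43 and 3.09 CPM. In liver, TLR8 was at 3.99, 3.97, 5.37, 1.39 and 2.03 CPM. The ranges overlapped, 4 of 5 boars had the higher value in backfat, and boar 71 was lowest in both tissues. The log2 fold change was 0.31 (SE 0.38, edgeR FDR 0.506). RefSeq places TLR7 (ENSSSCG00000012117; chrX:9573178-9576987, plus strand, a partial model of 1 exon) inside the span of TLR8 (ENSSSCG00000012118; chrX:9551284-9616762, plus strand), so the division of reads between this pair depends on the exon models used for counting.

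Among the surface receptors, TLR4 went the other way. TLR4 binds bacterial lipopolysaccharide together with MD-2, the product of LY96. Its gene (ENSSSCG00000005503) lies at chr1:258044610-258054641 on the plus strand, and its promoter window (chr1:258044360-258044659) is shown because it held the PU.1/ETS core GAGGAA, the motif of a macrophage transcription factor. Capitals mark the match, which begins 40 bases before the start and reads on the opposite strand:
TLR4 promoter: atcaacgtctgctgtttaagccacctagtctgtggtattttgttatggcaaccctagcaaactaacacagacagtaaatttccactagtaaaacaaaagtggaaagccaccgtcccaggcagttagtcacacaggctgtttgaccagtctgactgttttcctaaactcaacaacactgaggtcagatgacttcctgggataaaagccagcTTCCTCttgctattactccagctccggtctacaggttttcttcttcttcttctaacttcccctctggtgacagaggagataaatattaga
This core was present in 4 of the 9 member windows (TLR1, TLR4, TLR6 and TLR9) and in 26.0% of all windows. In backfat, TLR4 was at 10.7, 18.6, 10.4, 8.13 and 15.2 CPM. In liver, TLR4 was at 7.63, 8.67, 8.11, 5.78 and 7.92 CPM. Backfat was higher in 5 of 5 boars and highest in boars 67 and 72, while the lowest backfat library, boar 71, lay within the liver range. The difference was 1.65-fold (log2 fold change 0.73, SE 0.24, edgeR FDR 0.0197). The call was lost without the backfat library of boar 67 (0.55, FDR 0.0562) and without the liver library of boar 71 (0.62, FDR 0.0560). The 10 matched macrophage genes summed to 343 to 636 CPM in backfat and 991 to 1171 CPM in liver. Of these, 8 of the 10 were called higher in liver, beside the 27.0% of all genes, and CD68 and CSF1R were not called. Which cells carried TLR4 was not tested.

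TLR2 pairs with TLR1 or TLR6 to bind lipopeptides of bacteria. In backfat, TLR2 was at 6.17, 8.39, 4.84, 5.59 and 7.05 CPM. In liver, TLR2 was at 9.70, 24.1, 18.9, 13.4 and 18.4 CPM. The liver value was highest in boar 67 and lowest in boar 65, and the lowest liver library was above the highest backfat library. TLR2 was 2.63-fold higher in liver (log2 fold change -1.40, SE 0.25, edgeR FDR 4.83e-04), and without the liver library of boar 67 the log2 fold change was -1.26, still called. The gene (ENSSSCG00000009002; chr8:75416257-75428370, minus strand) lies apart from the other members on that chromosome.

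TLR10, TLR1 and TLR6 form a cluster of 55.8 kb on the minus strand of chr8:30124895-30180650. TLR6, the partner of TLR2 for diacylated lipopeptides, was the called member of the cluster. In backfat, TLR6 was at 4.09, 3.20, 3.90, 2.23 and 2.76 CPM. In liver, TLR6 was at 5.76, 6.16, 5.54, 6.95 and 6.92 CPM. Boars 71 and 72 were lowest in backfat and highest in liver, and the tissues did not overlap. TLR6 was 1.93-fold higher in liver (log2 fold change -0.95, SE 0.23, edgeR FDR 0.00338), but with library size alone the difference was -0.21 with an FDR of 0.491.

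TLR1, the partner of TLR2 for triacylated lipopeptides, had the same sign as TLR6 without passing the test. In backfat, TLR1 was at 3.94, 3.31, 4.98, 1.55 and 2.04 CPM. In liver, TLR1 was at 4.51, 4.48, 4.42, 3.44 and 4.88 CPM. The backfat value of boar 69 was the highest of all 10 libraries. The 5 liver values lay inside the backfat range, above the backfat libraries of boars 67, 71 and 72. The log2 fold change was -0.46 (SE 0.31, edgeR FDR 0.237).

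TLR1 (ENSSSCG00000026583; chr8:30147600-30155454) and TLR6 (ENSSSCG00000026592; chr8:30159744-30180650) are close copies of each other over part of their coding sequence, which bears on how their reads can be told apart. Of the aligned coding bases, 97.6% were identical from base 1294 to base 2325 of TLR1, with positions counted from 1 at the start codon. Before base 1294 62.8% were identical, and from base 2326 to 2391 59.7%. The bounds 1294 and 2325 are the ends of the outermost identical runs of at least 50 bases, so high identity between them follows in part from that choice. The longest identical runs had 321, 221 and 156 bases. A read wholly inside an identical run cannot by itself be assigned to its gene. A shorter run of 87 bases, from base 2239 to 2325 of TLR1 and from 2242 to 2328 of TLR6, is shown as an example:
TLR1 and TLR6, shared: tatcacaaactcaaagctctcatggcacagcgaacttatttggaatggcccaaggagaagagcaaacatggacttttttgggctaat
A stretch of 90 bases from the outer part, base 301 to 390 of TLR1 and base 310 to 399 of TLR6, is shown for contrast. Capitals mark the 22 positions at which they differ:
TLR1, differing: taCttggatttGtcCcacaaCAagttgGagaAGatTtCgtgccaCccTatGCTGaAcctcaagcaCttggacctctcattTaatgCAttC
TLR6, differing: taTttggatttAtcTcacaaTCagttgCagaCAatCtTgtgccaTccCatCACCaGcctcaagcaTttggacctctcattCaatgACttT
Of all windows of 50 bases in the RefSeq exons, 21.8% of those of TLR1 and 13.8% of those of TLR6 had an exact copy in another receptor, against none for the other 8 members. The counting command had no option for reads that map to more than 1 place, so the levels of TLR1 and TLR6 are uncertain in that share of their length. The reads were paired, and a mate outside a shared stretch can tell the genes apart, which these windows do not take into account. The cause of the differing calls of this pair was not tested.

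TLR10, a member whose ligand is not settled, was the least abundant, with 3 to 34 counts in backfat and 7 to 21 in liver. In backfat, TLR10 was at 0.383, 0.305, 0.235, 0.054 and 0.137 CPM. In liver, TLR10 was at 0.499, 0.405, 0.276, 0.221 and 0.570 CPM. Liver was higher in 5 of 5 boars, but the ranges overlapped and the log2 fold change of -0.80 (SE 0.50, edgeR FDR 0.193) did not pass. TLR10 (ENSSSCG00000027877) lies at chr8:30124895-30134854.

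TLR5 is the receptor for bacterial flagellin. In backfat, TLR5 was at 9.82, 7.66, 11.02, 5.10 and 6.11 CPM. In liver, TLR5 was at 24.6, 6.48, 25.8, 14.1 and 15.7 CPM. The liver library of boar 67, which had the lowest sum of hepatocyte markers and the largest share of mitochondrial counts, was below 3 of the 5 backfat libraries, and the other liver libraries were above all of them. TLR5 was 2.18-fold higher in liver (log2 fold change -1.12, SE 0.35, edgeR FDR 0.0151), and -1.37 without the liver library of boar 67. With library size alone the difference was -0.46 and the FDR 0.326. TLR5 (ENSSSCG00000010885) lies on the minus strand of chr10:19387666-19410024, and its promoter window (chr10:19409975-19410274, minus strand) is shown as the other window with the IRF motif, in capitals at 110 bases before the start:
TLR5 promoter: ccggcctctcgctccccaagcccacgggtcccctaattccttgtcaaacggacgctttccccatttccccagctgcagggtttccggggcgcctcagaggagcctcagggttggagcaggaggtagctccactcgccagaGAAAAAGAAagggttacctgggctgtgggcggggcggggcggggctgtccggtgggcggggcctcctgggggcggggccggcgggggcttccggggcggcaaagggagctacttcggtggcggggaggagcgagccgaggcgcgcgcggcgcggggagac
The TLR5 window was rich in G and C (71.3%, with 28 CpG dinucleotides), whereas that of TLR3 had 37.0% and 4 CpG dinucleotides and that of TLR4 43.7% and 3. Of the other motifs searched on both strands, NF-kB (GGANTTTCC) had no match in the 9 windows, beside 1.67% of all windows, and AP-1 (TGANTCA) matched in TLR9 and TLR10, beside 6.27%. TLR7 had no complete transcript start and thus no window.

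Within a tissue, levels of different receptors were compared as TMM CPM per kilobase of exon, the exon length being that of the count table. In backfat, TLR7 led with 3.85 ± 0.63 (SD, n = 5), followed by TLR4 with 1.59 ± 0.53, TLR5 with 1.53 ± 0.48 and TLR1 with 1.13 ± 0.50. The order went on with TLR3, TLR6, TLR2 and TLR8, at means from 0.834 down to 0.554, and ended with TLR9 at 0.160 ± 0.034 and TLR10 at 0.078 ± 0.046. Only TLR7 and TLR4, and TLR8 and TLR9, were neighbours whose ranges over the libraries did not overlap. TLR7 made up 35.2% of the summed level of the family in backfat, or 53.5% with RefSeq exon lengths.

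In liver, TLR3 moved from the fifth place to the first, with 5.64 ± 1.80 CPM per kilobase (SD, n = 5), beside TLR7 with 5.35 ± 0.49, and the pair overlapped, TLR3 being above TLR7 in 3 of 5 libraries. TLR5 with 3.35 ± 1.54, TLR2 with 1.72 ± 0.57, TLR1 with 1.56 ± 0.19 and TLR6 with 1.28 ± 0.13 followed. TLR4 was in the seventh place with 0.960 ± 0.138, and TLR6 and TLR4 were the neighbours of this liver order whose ranges did not overlap. With RefSeq lengths this pair was reversed, again without overlap. TLR4 then lay at 1.62 to 2.42 and TLR6 at 1.13 to 1.42 CPM per kilobase in liver. TLR9, TLR8 and TLR10 closed it at 0.488 ± 0.224, 0.445 ± 0.215 and 0.138 ± 0.051. The order rests on the exon length used: the table gives TLR7 12032 exon bases and TLR3 6545, RefSeq gives 3810 and 3094, and with RefSeq lengths TLR7 led in both tissues, at 12.2 ± 2.0 in backfat and 16.9 ± 1.5 in liver.

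**Figure D3:**
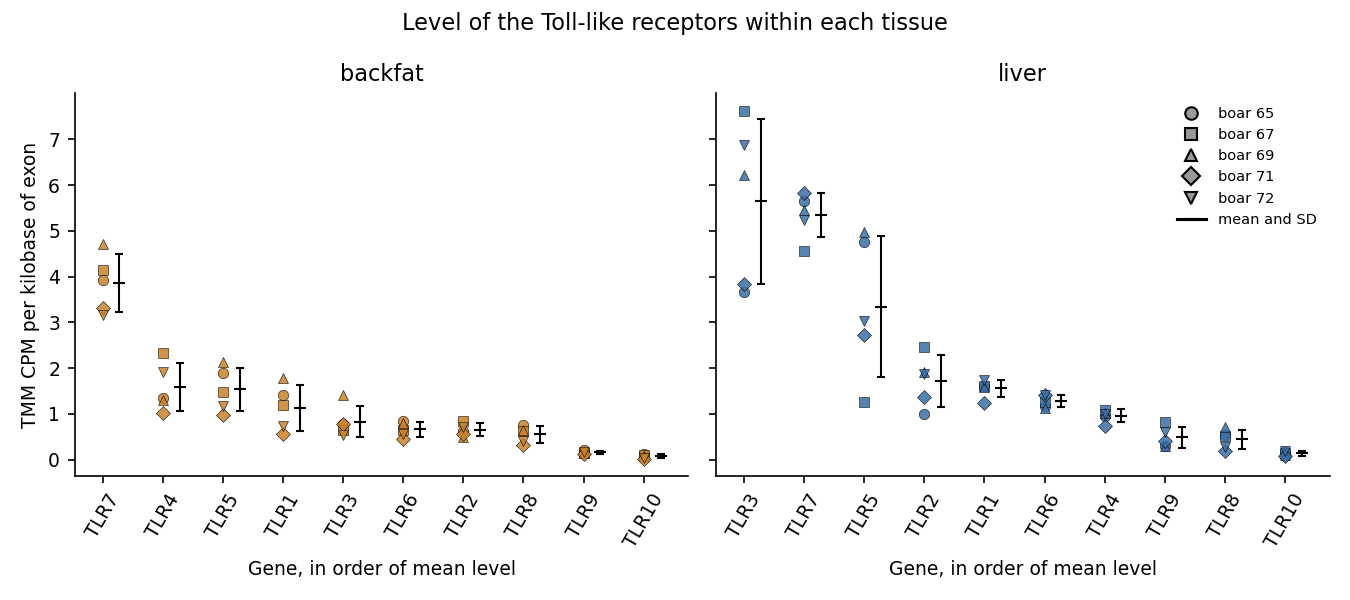
TMM CPM per kilobase of exon of each receptor, with backfat on the left and liver on the right, genes in order of their mean, 1 symbol per boar, and the mean with SD of 5 libraries beside the points. TLR7 stands above the others in backfat at 3.17 to 4.71, and in liver TLR3 and TLR7 overlap at the top; with RefSeq exon lengths TLR7 leads in both tissues.

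The spread among boars differed between members. The coefficient of variation over 5 libraries was lowest for TLR7, 16.5% in backfat and 9.16% in liver, and was highest for TLR10 in backfat (58.7%) and TLR8 in liver (48.2%). TLR1 and TLR6 varied by 44.1% and 24.0% in backfat and by 12.4% and 10.4% in liver. After the mean of each tissue was subtracted from log2 CPM, the receptors that varied most alike over the 10 libraries were TLR1 and TLR6 (r = 0.81), which share sequence, and TLR1 and TLR10 (r = 0.81). TLR5 and TLR9 varied most oppositely (r = -0.65), and the liver library of boar 67, with the lowest TLR5 and the highest TLR9, is among those points. Correlations here describe these 10 libraries, which share 5 animals, and were not tested.

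By the same measure, the 3 genes nearest to each receptor were sought among 13026 genes with at least 10 counts in every library. A search through so many genes over 10 libraries can return a high r without shared regulation. Functions are named below for some neighbours only, and a shared function was not tested. TLR3 was nearest to TRIM14 (r = 0.95), a regulator of antiviral signalling, then to RAB42 and AKAP7. TLR9 was nearest to CACNB3 (r = 0.97), SPACA6 and NCF1, the last a subunit of the phagocyte NADPH oxidase. TLR4 was nearest to CXCL11 (r = 0.92), an interferon-induced chemokine, followed by a gene without a symbol and RNF19B. TLR5 was nearest to TAF1A (r = 0.98), CARNS1 and NR3C1, the glucocorticoid receptor. TLR10, at as few as 3 counts in a library, was nearest to FRYL (r = 0.95), GZMA (r = 0.90) and GIMAP8. The symbol GZMA, a granule protease of T and NK cells, belongs to 2 identifiers, and ENSSSCG00000016903 was this neighbour. TLR2 was nearest to ELN (r = 0.94), TLR6 to PHF2 (r = 0.96), and TLR1, TLR7 and TLR8 to genes without a symbol.

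Levels of leukocyte markers were set beside the receptors, since most members are known from immune cells. The 7 pan-leukocyte genes summed to 158 to 352 CPM in backfat and 221 to 460 CPM in liver, and 2 of them (LCP1 and SPI1) were called, both higher in liver. Of the other lists, 4 of 5 dendritic cell genes and 5 of 6 B cell genes were called higher in liver, 2 of 6 T and NK cell genes and 1 of 5 neutrophil genes likewise, and 5 of 6 endothelial and 5 of 5 fibroblast genes were called higher in backfat. These counts stand beside the 27.0% of all genes called higher in liver and the 28.0% called higher in backfat, and those of the T and NK cell and neutrophil lists are near that share. Summed dendritic cell genes lay at 51.7 to 73.5 CPM in backfat and 58.9 to 157 CPM in liver, and B cell genes at 4.54 to 7.59 and 6.92 to 17.9 CPM. T and NK cell genes summed to 19.1 to 59.98 and 29.1 to 88.2 CPM and neutrophil genes to 4.70 to 15.5 and 3.31 to 27.8 CPM. Endothelial genes summed to 996 to 1450 and 376 to 685 CPM. STAB1 was the endothelial gene not called, with a log2 fold change of -0.60, and VWF and STAB2 were listed but not matched. Of the liver libraries, that of boar 67 had the highest sum of every list except the hepatocyte one, endothelial (685 CPM), fibroblast (1062 CPM) and adipocyte (15.7 CPM) genes included, and the highest liver values of TLR2, TLR3, TLR4 and TLR9. With each tissue's mean removed, 5 of the 100 correlations between a receptor and a marker sum over 10 libraries had a size of at least 0.8. They were TLR4 with macrophage (r = 0.89), TLR9 with dendritic cell (r = 0.81), TLR7 with hepatocyte (r = 0.80), and TLR5 with fibroblast (r = -0.82) and B cell genes (r = -0.82). The part of cell composition in the tissue differences was not tested.

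The other genes of the pathway were read in the same fit, from lists by role. Of 47 matched genes 45 were tested and 23 were called, 18 towards liver and 5 towards backfat, and 5 were DEGs (CD14, LBP, TICAM1, PIK3AP1 and IRF7), each on the liver side. The share called was near that of all genes, of which 55.0% were called, and the share of DEGs was below the 22.3% of all genes. By direction, 27.0% of all genes were called higher in liver and 28.0% higher in backfat. DEGs higher in liver made up 11.2% of all genes, near the share of the pathway genes, and DEGs higher in backfat 11.1%. The median log2 fold change of these 45 genes was -0.41. With library size alone the split was 17 higher in backfat and 9 in liver, so the balance of the list rests on TMM, while the 5 DEGs kept their sign and their call. Under that scaling 11 pathway genes turned from negative to positive, and 9 lost their call: CD180, LY86, AP3B1, TIRAP, IRAK1, IKBKG, IKBKE, RELA and IRAK3. CD36, TICAM2, SARM1, TNF and IL1B were not analysed here.

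LBP and CD14, which deliver ligands, had the largest differences of the pathway genes tested. All 5 matched genes of their list were called, 4 higher in liver (27.0% of all genes) and LY96 higher in backfat (28.0%). CD14, which passes lipopolysaccharide to TLR4 and MD-2, was at 21.8, 25.7, 40.3, 27.5 and 33.0 CPM in backfat. In liver CD14 was at 697, 397, 629, 1063 and 987 CPM, far above every backfat library, and the log2 fold change was -4.67 (SE 0.34). LBP, the plasma protein made by hepatocytes that carries lipopolysaccharide to CD14, had 4, 0, 55, 2 and 1 counts in backfat and 393 to 942 CPM in liver. The fitted value of LBP, -11.36 (SE 1.18), rests on the backfat library of boar 69, without which it was -14.20. LY96 (MD-2) went with TLR4: it was at 6.55, 14.9, 7.75, 7.17 and 13.9 CPM in backfat. In liver LY96 was at 3.07, 8.10, 2.57, 3.41 and 1.87 CPM, and only boar 67 reached the backfat range. Its log2 fold change was 1.40 (SE 0.40, edgeR FDR 0.0103), and 1.85 without that liver library. Backfat was thus higher for both TLR4 and its partner MD-2, and liver for CD14 and LBP. CD180, a receptor-like relative of TLR4, and its partner LY86 (MD-1) were higher in liver, by -1.55 and -1.49.

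Chaperones that fold the receptors or carry them to endosomes were higher in liver for 4 of 5 genes, beside 27.0% of all genes. UNC93B1, which escorts the nucleic acid sensors to endosomes, was at 55.3, 42.5, 24.3, 34.0 and 52.0 CPM in backfat. In liver UNC93B1 was at 79.3, 157, 118, 94.2 and 178 CPM, without overlap, and the log2 fold change was -1.59 (SE 0.28, edgeR FDR 3.70e-04). CNPY3 (-1.998, just short of a DEG) and HSP90B1 (gp96, -1.67), which fold surface and endosomal receptors, and AP3B1 (-0.46) were also called, while LRRC59 (-0.41) was not. AP3B1 turned to 0.25 with library size alone.

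The adaptors were unequal. MYD88, used by nearly all members, was at 58.6, 53.3, 55.4, 40.9 and 36.6 CPM in backfat. In liver MYD88 was at 48.6, 45.7, 60.4, 38.3 and 54.4 CPM, the ranges overlapped, and the log2 fold change was -0.01 (SE 0.18, edgeR FDR 0.953), turning to 0.70 (FDR 0.0219) with library size alone. TICAM1, the adaptor of TLR3, was at 9.09, 10.8, 9.25, 9.14 and 16.1 CPM in backfat. In liver TICAM1 was at 51.7, 44.2, 69.6, 80.3 and 96.2 CPM, without overlap, and the log2 fold change was -2.65 (SE 0.25). TLR3 and TICAM1 were thus both DEGs higher in liver. PIK3AP1 (BCAP), which links the receptors to PI3-kinase, was a DEG as well (-3.09, SE 0.37), and TIRAP, the bridge from TLR2 and TLR4 to MYD88, was called (-1.33).

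Among 15 kinases and ubiquitin ligases 6 were called, beside 55.0% of all genes, and in both directions. IRAK2 (1.58), IRAK4 (1.41) and TRAF6 (0.83) were higher in backfat. IRAK1 (-0.81), IKBKG (-1.12) and IKBKE (-0.84) were higher in liver. IKBKE missed the threshold in 6 of 20 alternatives. Of 8 transcription factors 2 were called, RELA (-0.83), a subunit of NF-kB, and IRF7. Both were higher in liver, and this count is near the 27.0% of all genes called higher in liver. IRF7, the interferon regulatory factor that acts after TLR7 and TLR9, was at 19.98, 21.8, 20.8, 15.9 and 28.7 CPM in backfat. In liver IRF7 was at 51.5, 496, 164, 76.1 and 478 CPM, highest in boars 67 and 72, and its log2 fold change was -3.56 (SE 0.60). Of 5 inhibitors, SIGIRR (-1.53) and IRAK3 (-1.25), which restrain the receptor complex, were higher in liver and NFKBIA (0.61), which holds NF-kB in the cytoplasm, was higher in backfat. The inhibitor calls stand beside 27.0% of all genes called higher in liver and 28.0% called higher in backfat. NFKBIA lost its call without 7 of the 10 single libraries. The cytokine genes were scarce: IL6 at 0.429 to 1.94 CPM in backfat and 0.324 to 0.756 CPM in liver, CXCL8 at up to 0.597 CPM and IL10 at up to 3.70 CPM, none of these 3 passing the test, and IL12B and IFNB1 were too low to be tested.

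**Figure D4:**
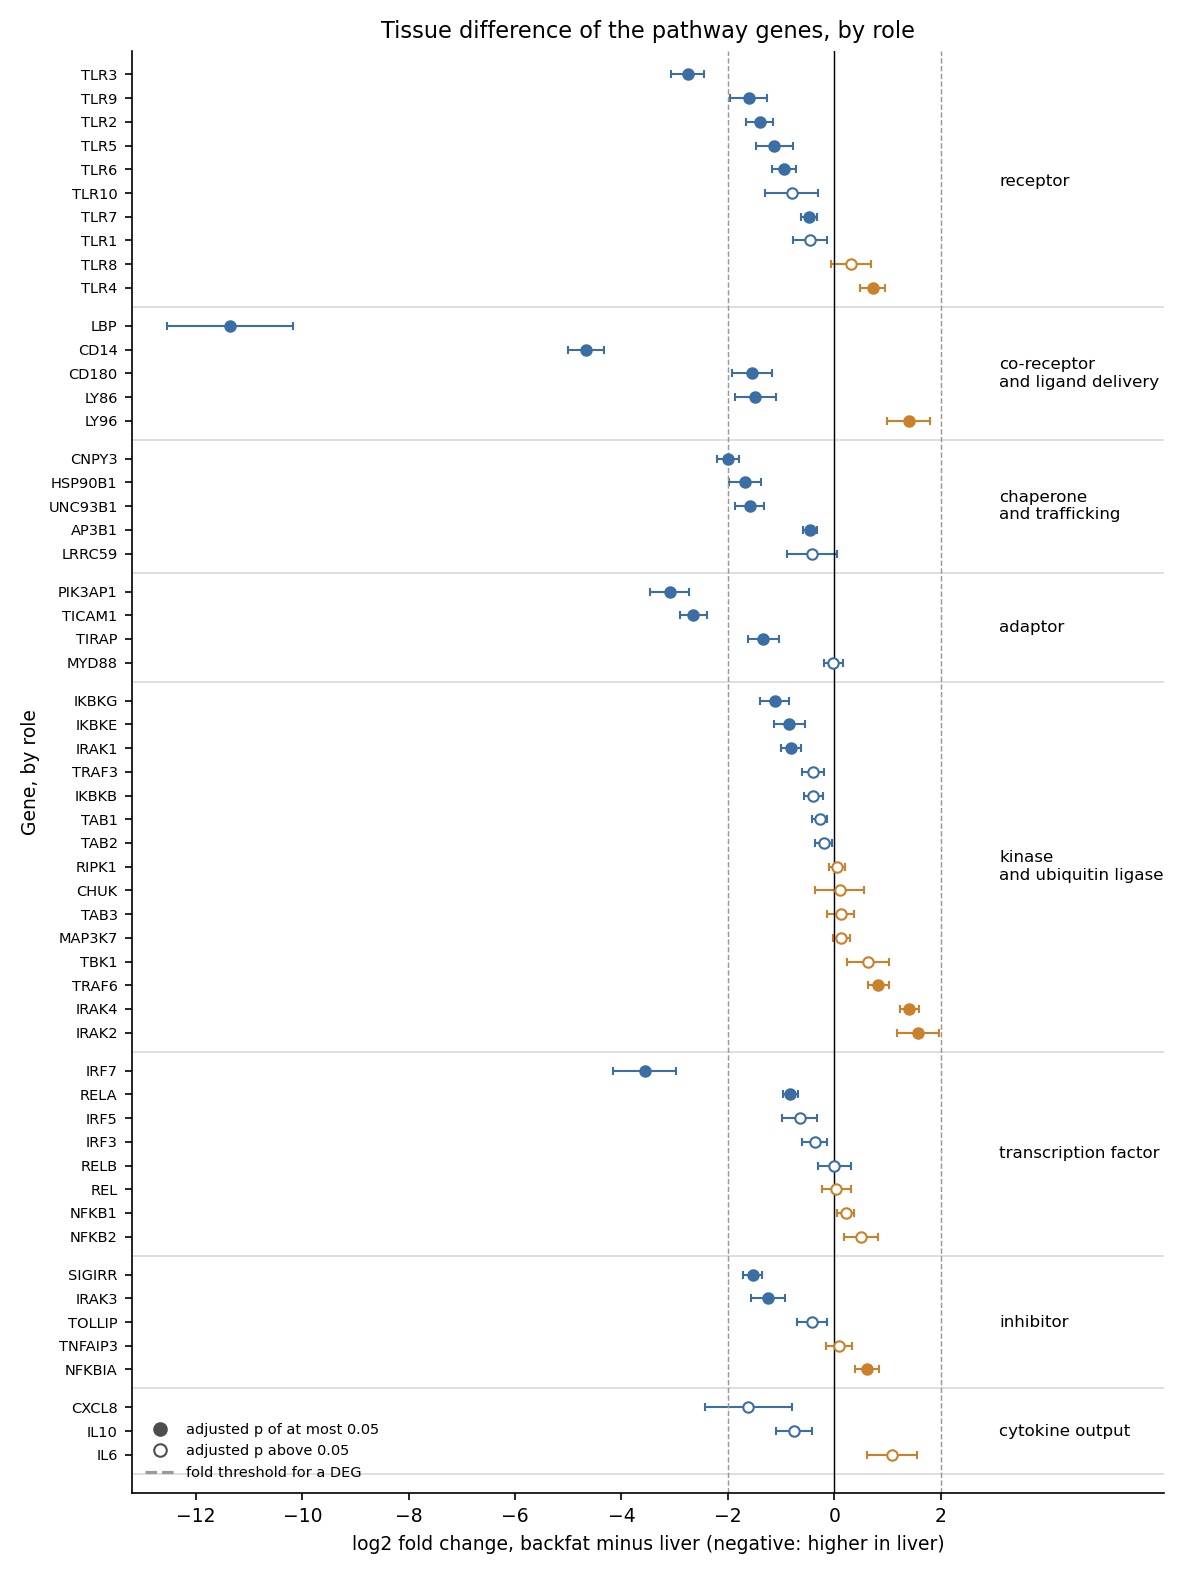
Log2 fold changes (backfat minus liver) with standard errors for the receptors and the 45 tested pathway genes, by role, with filled points where the adjusted p was at most 0.05 and dashed lines at the fold threshold of a DEG. LBP at -11.36 and CD14 at -4.67 lie farthest to the liver side and LY96, IRAK4 and IRAK2 to the backfat side; with library size alone all 55 values move towards backfat and 13 of them, TLR1, TLR7, MYD88 and AP3B1 included, turn from negative to positive.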

How the data were processed

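The authors trimmed RNA-seq reads with Trimmomatic, mapped them with HISAT2 to Sscrofa11.1 and counted them with featureCounts 2.0.1 on exons of Ensembl release 99. The deposited values are raw counts of reads per gene, and the exon length beside them is in bases. The fit used edgeR 4.0.16 under R 4.3.3: filterByExpr by tissue, TMM, and a quasi-likelihood test of tissue with no other covariate, adjusted over the 16275 genes tested (Benjamini-Hochberg). DESeq2 1.42.0 and limma 3.58.1 (voom), other scalings and filters, the boar as a block and leaving out libraries were alternatives. Fits were tested on simulated counts. The SE given with an edgeR log2 fold change is its absolute value divided by the square root of the quasi-likelihood F statistic.

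Members and gene lists were chosen with earlier results of these data known. All receptors were named; of the pathway lists the DEGs and the genes that define a step are given with values, and other called genes were added after their values were seen. Marker lists, motifs and the like-pattern search (0.1 CPM added before log2) are descriptions. Locations and sequences are from RefSeq (Sscrofa11.1), and a library was set apart by Dixon's ratio above 0.71. The boar numbers come from the column names. Deviations from the tissue means correlated between libraries of the same boar with r from 0.049 to 0.24. In boar 69 this r (0.049) was below the highest r of its backfat library with the liver library of another boar (0.131). No pair of libraries was a duplicate. The sample labels do not say that libraries are from separate animals, which the column names do. Methylation was not analysed here. Depth ranged from 43820042 to 61772737 counts per library.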

Additional observations from a re-analysis of the deposited data

Results flagged for a closer look

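The groups checked were the receptors, the step-defining pathway genes and the pathway DEGs in each tissue. In 5 of these 36 groups of 5 libraries, 1 library lay far from the other 4. Its gap to the nearest exceeded 0.71 of the whole range. For normally distributed values chance gives about 1 such group in 20, but the CPM were not logged and can be skewed, so this rate may not hold. In backfat, TLR3 was at 9.20 CPM in boar 69 against 3.59 to 5.15 CPM in the others. LBP was at 0.925 CPM in backfat of the same boar against 0 to 0.045 CPM, and in its liver LBP was at 942 CPM against 393 to 462 CPM. LY96 was at 8.10 CPM in liver of boar 67 against 1.87 to 3.41 CPM. TICAM1 was at 16.1 CPM in backfat of boar 72 against 9.09 to 10.8 CPM. What set these libraries apart was not tested.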

How the results depend on the processing

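Over 199 alternative values of the 10 receptors, 190 kept their direction and their side of the threshold. TLR2, TLR3 and TLR9 kept their call in each alternative run, and TLR1, TLR8 and TLR10 were called in none. With library size alone, 4 receptors were called, TLR1 turned to 0.26 and TLR7 to 0.24, AP3B1 to 0.25 and MYD88 to 0.70. MYD88, at -0.01, was also 0.094 with upper-quartile factors, 0.044 with all genes that had a count, and between -0.12 and 0.081 when single libraries were left out. Over all alternatives the adjusted p ranged from 5.24e-04 to 0.0562 for TLR4, 7.98e-04 to 0.326 for TLR5, 1.99e-05 to 0.491 for TLR6 and 0.00354 to 0.282 for TLR7. The test of genes with at least 10 counts in every library gave 1852 DEGs, from fewer genes tested, and left TLR10 and LBP out. DESeq2 gave 4900 DEGs. Leaving out single libraries gave 3716 to 3964 DEGs, 6 or 7 called receptors and 21 to 25 called pathway genes. With RefSeq exon lengths, chosen after the data were seen, 8 of 20 places in the 2 orders of levels were kept, and 14 to 20 when single libraries were left out. With the boar as a block 3670 DEGs, 7 receptors and 24 pathway genes were called, and the pairing changed no call of a receptor. Counts of TLR10, as low as 3 in a library, limit what can be seen of it.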
